A study of Mus musculus with 12 samples.

Results

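The 35 genes described here mark the endothelium, the connective tissue scaffold and the contractile cells of the spleen, out of 46603 Ensembl gene identifiers counted in each library. They were taken by symbol for the roles they are known for, with earlier results of these data known. All 35 had an identifier in the files. They fall into 7 classes, with 10 endothelial genes, 4 fibrillar collagens, 6 genes of the basement membrane, 5 of microfibrils and matrix glycoproteins, 3 small leucine-rich proteoglycans, 2 receptors of fibroblasts and pericytes and 5 smooth muscle genes. RNA sequencing was carried out on C57/Bl6 mice aged 8 months, either lacking nuclear myosin 1 (NM1 KO) or wild type (WT), in the groups KO spleen, WT spleen, KO blood and WT blood. Each of the 4 groups held 3 libraries. NM1 is a nuclear form of the class I myosin gene Myo1c, and a count per gene adds up all forms of it, so the knockout itself cannot be seen in these counts. By the labels' protocols, the spleen sample was a piece of about 5 mm3 from the organ's tip, freed of fat and connective tissue around it, and blood was drawn from the submandibular vein.

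In the red pulp of the spleen, blood passes out of open-ended vessels and returns to the veins. A capsule and trabeculae of collagen and smooth muscle hold the organ, and reticular fibroblasts lay down fibres of collagen, laminin and proteoglycan on which lymphocytes and macrophages move. Drawn blood holds few of these cells, while platelets and leukocytes make some of the same products, among them Pecam1, Esam and fibronectin.

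The tissue labels did not go with the content of the libraries. Globin took 0.846% to 5.89% of counts in 6 libraries, called globin-poor here, and 48.9% to 56.1% in the other 6, called globin-rich (over 25% of counts). The globin-poor libraries were those labelled spleen KO 01, spleen KO 04, spleen WT 01, blood KO 04, blood WT 03 and blood WT 04, with 23.1 to 28.2 M counts each (M, 10 to the power of 6). The globin-rich ones were labelled spleen KO 03, spleen WT 02, spleen WT 04, blood KO 02, blood KO 03 and blood WT 01, with 9.32 to 12.1 M counts. Each kind therefore held 3 KO and 3 WT libraries, and 3 with each tissue label. Levels below are CPM, the usual scaling of counts to a common library total, here with globin genes left out of that total. A gene with 0 counts in a library could have up to 3 counts by chance, or 0.109 to 0.733 CPM depending on the library.

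The mismatch with the labels showed in genes of the spleen's own stroma, from a list kept for comparison. That list too was chosen with earlier results of these data known. Tlx1, Nkx2-5 and Nkx2-3, transcription factors needed in mice for the spleen to form or to build its compartments, were present in every globin-poor library, whichever tissue its label named. Nkx2-5 stood at 12.3, 12.7 and 22.4 CPM in spleen KO 01, spleen KO 04 and spleen WT 01 and at 12.1, 13.4 and 8.49 CPM in the libraries labelled blood KO 04, blood WT 03 and blood WT 04. It had 0 counts in all 6 globin-rich libraries. Of the 17 genes listed for splenic reticular and mesothelial cells, 14 stood higher in every globin-poor than in any globin-rich library, with sums of 618 to 1480 CPM against 0.751 to 16.8 CPM. Ccl19, Cxcl13, Nkx2-5 and Msln, named like the other transcription factors after their values were seen, had 0 counts in every globin-rich library, including those labelled spleen KO 03, spleen WT 02 and spleen WT 04. Whether tissue labels or samples were exchanged was not tested. If they were, every value given by tissue label, and by genotype if whole libraries were exchanged, would belong to another group. Every library keeps its label below, and genotype and tissue label were compared within each kind as well as across all libraries.

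Promoter sequences are shown for 4 members whose levels stand out in the results, namely 2 fibrillar collagens with the same order at the top and bottom across the globin-poor libraries, the fibrillar collagen that ran against them, and the endothelial gene with the highest ratio between the kinds of library. They are RefSeq sequences of build GRCm38.p6, all on the plus strand, from 250 bases before to 50 bases after the annotated start, written 5′ to 3′. Capitals mark TATAAA or CCAAT on either strand, so that CCAAT on the minus strand reads ATTGG. The regions are chr6:4505368-4505667 for Col1a2, chr1:45311288-45311587 for Col3a1, chr2:27886175-27886474 for Col5a1 and chr16:18776597-18776896 for Cldn5.
Col1a2: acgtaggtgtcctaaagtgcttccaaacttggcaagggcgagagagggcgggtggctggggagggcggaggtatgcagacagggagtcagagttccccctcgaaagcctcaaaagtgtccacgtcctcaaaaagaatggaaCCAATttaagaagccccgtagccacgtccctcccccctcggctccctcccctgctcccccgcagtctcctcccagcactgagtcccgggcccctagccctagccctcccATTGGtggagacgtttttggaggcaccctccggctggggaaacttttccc
Col3a1: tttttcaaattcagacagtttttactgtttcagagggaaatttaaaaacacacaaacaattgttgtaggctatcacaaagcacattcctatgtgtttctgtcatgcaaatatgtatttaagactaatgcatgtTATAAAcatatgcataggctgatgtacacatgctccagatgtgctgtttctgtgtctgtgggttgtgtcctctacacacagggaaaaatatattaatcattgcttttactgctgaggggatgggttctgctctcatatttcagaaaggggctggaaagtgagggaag
Col5a1: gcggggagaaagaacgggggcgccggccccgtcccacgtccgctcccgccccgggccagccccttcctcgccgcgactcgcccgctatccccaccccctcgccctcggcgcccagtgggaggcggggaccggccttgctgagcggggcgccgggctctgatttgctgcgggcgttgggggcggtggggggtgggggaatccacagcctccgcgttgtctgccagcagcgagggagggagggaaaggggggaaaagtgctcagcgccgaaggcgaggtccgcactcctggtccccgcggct
Cldn5: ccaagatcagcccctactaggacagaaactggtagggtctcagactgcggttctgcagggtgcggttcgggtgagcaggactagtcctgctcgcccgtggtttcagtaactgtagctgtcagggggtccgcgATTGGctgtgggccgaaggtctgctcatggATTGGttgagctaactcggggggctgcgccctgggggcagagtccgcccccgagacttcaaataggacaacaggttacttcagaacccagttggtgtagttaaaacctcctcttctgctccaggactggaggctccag

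Of the 35 members, 23 matched this promoter table, and Myh11, Col1a1, Lum, Fn1, Tagln, Lamc1, Dcn, Esam, Lama4, Pecam1, Cdh5 and Pdgfrb did not. CCAAT was found in the windows of 7 of these genes (Cldn5, Cnn1, Col18a1, Col1a2, Col4a1, Col4a2 and Lamb1). Of all 32851 windows of the same length, 37.4% held it. The windows of Col4a1 and Col4a2 share 78 bases, so a match there may be counted for both. TATAAA was found in the window of Col3a1 alone among the 23, and in 13.6% of all windows. The Col5a1 window, rich in g and c, held neither. A match of letters is a description of these windows and does not show that a factor binds there.

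The members together summed to 2158 to 4219 CPM in the globin-poor libraries and to 293 to 622 CPM in the globin-rich ones. For 30 of the 35, every globin-poor library stood above every globin-rich one, beside 49.8% of 14539 genes that averaged 1 CPM or more. No member stood below in this way, beside 3.51% of those genes. The exceptions were Pecam1, Esam, Fn1, Lamc1 and Emcn. The median log2 ratio of globin-poor over globin-rich means was 4.99 for the members and 1.15 for all genes. With another scaling, the trimmed mean of M-values (TMM), these were 3.92 and 0.12, so the members' median lay 3.84 above that of all genes by CPM and 3.8 above it by TMM. Of the 35, 34 averaged 1 CPM or more, and Lum did not. The lowest member by CPM was Esam at -0.63, and the lowest stood at -1.73 with TMM and at 0.41 with globin kept in the total, so whether any member averaged lower in globin-poor libraries depended on the scaling. With TMM, 25 of the 35 members kept the kinds apart, beside 18.5% of all genes. The kinds were defined from the counts, so no test was made between them. In these bulk libraries, fewer cells of a type and less RNA per cell cannot be told apart.

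**Figure D1:**
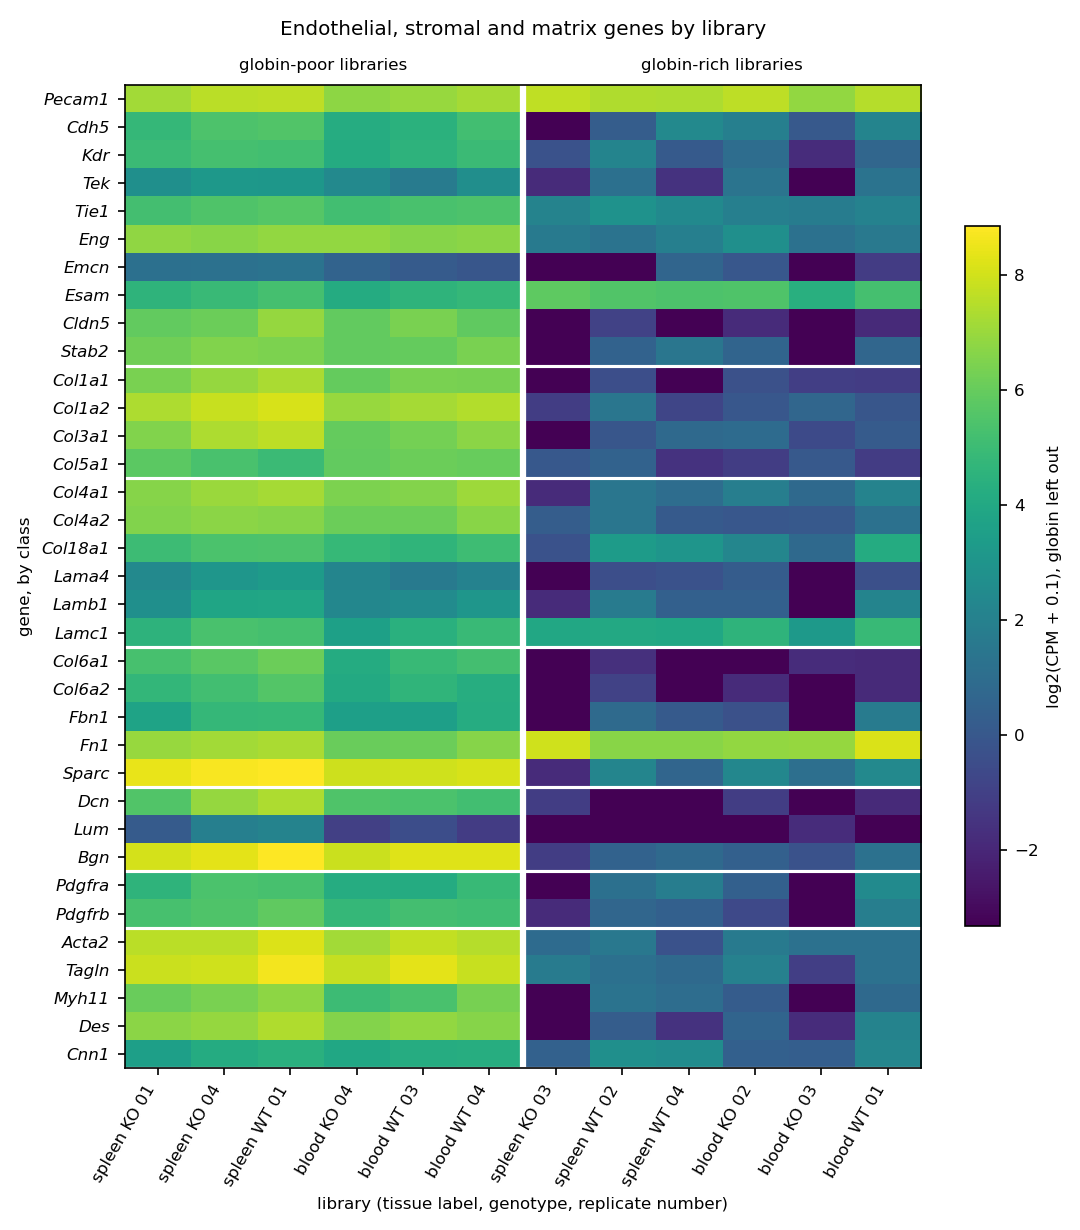
Level of each of the 35 genes, as log2(CPM + 0.1) with globin left out, in the 6 globin-poor libraries (left of the white line) and the 6 globin-rich ones (right), with genes grouped by class. All rows but those of Pecam1, Esam, Fn1, Lamc1 and Emcn are brighter in every globin-poor library, and the blood-labelled globin-poor libraries look like the spleen-labelled ones.

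Of the 10 endothelial genes, 7 stood higher in every globin-poor library, and the 3 members with the narrowest spread among the globin-poor libraries, Eng, Tie1 and Stab2, were endothelial. Eng, the endoglin co-receptor for bone morphogenetic proteins, stood at 116, 102 and 119 CPM in spleen KO 01, spleen KO 04 and spleen WT 01, and at 119, 101 and 107 CPM in blood KO 04, blood WT 03 and blood WT 04. Its highest globin-poor library was 1.18 times its lowest, the smallest such spread of any member, while Tie1 reached 1.41 and Stab2 1.51, and the median spread was 2.18 for the members and 1.96 for all genes. In the globin-rich libraries it lay between 2.25 and 6.61 CPM, with a median of 3.01 CPM. Stab2, the scavenger receptor of sinus endothelium that takes up hyaluronan, lay between 61.2 and 92.0 CPM (median 79.1 CPM) in globin-poor and between 0 and 2.69 CPM (median 1.37 CPM) in globin-rich libraries. Eng overlaps Fpgs on the opposite strand, and their reads may not be separable.

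Cldn5, the tight junction protein claudin 5 (ENSMUSG00000041378, GRCm38 chromosome 16, 18776847 to 18778262, plus strand), had the highest ratio between the kinds. It lay between 58.6 and 121 CPM in globin-poor libraries, with a median of 65.6 CPM, and between 0 and 0.435 CPM in globin-rich ones. Over all globin-rich libraries it had 4 counts, against 11004 counts in the globin-poor ones, a ratio of pooled CPM of 586 with a 95% counting interval of 229 to 2151. That interval overlaps those of Dcn (204 to 1466) and Col6a1 (147 to 2086), the next in order, and intervals here cover counting error only. This is the gene whose promoter above carries CCAAT as ATTGG at 118 and 88 bases before the start.

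Cdh5, Kdr, Tie1 and Tek serve the growth and stability of vessels. Cdh5, the cadherin of endothelial junctions, lay between 18.7 and 47.1 CPM in globin-poor and between 0 and 5.13 CPM in globin-rich libraries. Kdr, the main receptor for vascular endothelial growth factor, lay between 17.8 and 38.8 CPM against 0.188 and 4.35 CPM. Tie1 and Tek, related receptors of the angiopoietin system, lay between 35.6 and 50.3 CPM and between 3.21 and 8.87 CPM in globin-poor libraries, and at no more than 7.18 and 2.5 CPM in globin-rich ones. Cdh5 had 0 counts in spleen KO 03 and Tek in blood KO 03, while Kdr and Tie1 were counted in every library. Emcn, the sialomucin endomucin of capillaries and veins, was the scarcest member per length, at 0.309 ± 0.126 CPM per kb of exon in globin-poor libraries (SD, n = 6). It lay between 0.853 and 2.40 CPM there and reached 1.47 CPM in spleen WT 04, with 0 counts in 3 globin-rich libraries, so the kinds overlapped.

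Fibrillar collagens were present in every globin-poor library and close to absent from the globin-rich ones, with class sums of 313 to 671 CPM against 1.28 to 5.44 CPM. Col1a1 and Col1a2, which together form type I collagen, averaged 99.1 and 187 CPM in globin-poor libraries. Per length they stood at 15.1 ± 5.26 and 15.1 ± 4.59 CPM per kb there (SD, n = 6). Length here is the union of all annotated exons, 6563 bases for Col1a1 and 12426 for Col1a2. The like values per kb depend on that measure. Col3a1, the type III collagen of reticular fibres, stood at 11.9 ± 5.44 CPM per kb. By library, Col3a1 had 91.9, 164 and 200 CPM in spleen KO 01, spleen KO 04 and spleen WT 01, and 62.8, 78.9 and 106 CPM in blood KO 04, blood WT 03 and blood WT 04. Col1a1 followed the same order at the top and the bottom, with 84.1, 121 and 159 CPM in those spleen-labelled libraries, in the same order, and 63.8, 84.6 and 82.8 CPM in the blood-labelled ones. Col1a2 stood at 166, 227 and 281 CPM in the spleen-labelled and at 125, 149 and 177 CPM in the blood-labelled libraries. All 3 were highest in spleen WT 01 and lowest in blood KO 04, and in globin-rich libraries Col1a1 reached 0.715 CPM, Col1a2 2.61 CPM and Col3a1 1.79 CPM.

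Col5a1, a type V collagen chain that is built into type I fibrils (ENSMUSG00000026837, chromosome 2, 27886425 to 28039514, plus strand), ran the other way. It stood at 55.1, 41.5 and 31.7 CPM in spleen KO 01, spleen KO 04 and spleen WT 01, and at 61.6, 69.1 and 64.1 CPM in blood KO 04, blood WT 03 and blood WT 04. In globin-rich libraries it reached 1.31 CPM. Every blood-labelled globin-poor library was above every spleen-labelled one, and spleen WT 01, the highest library for 27 of the 35 members (32.7% of all genes), was the lowest for this one. Within the Col5a1 locus lie 2 noncoding genes on the opposite strand, and the strand setting of the counts was not given in the sources used here, so their reads cannot be told apart from its own.

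Basement membrane genes summed to 207 to 353 CPM in globin-poor and to 13.5 to 58.7 CPM in globin-rich libraries. Col4a1 and Col4a2, the 2 chains of the common type IV collagen network, lie head to head on chromosome 8 and overlap by 22 bases at their starts. Col4a1 lay between 87.6 and 147 CPM and Col4a2 between 69.1 and 106 CPM in globin-poor libraries, and the ratio of their CPM, which is not per length and serves only to compare libraries, stayed between 1.07 and 1.47. In globin-rich libraries they reached no more than 4.29 and 2.61 CPM. The ratio of Pdgfra to Kdr, given below, had a range of like width, so this steadiness was not particular to the Col4a1 and Col4a2 pair.

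Of the laminins, which link cells to the basement membrane, Lama4 and Lamb1 were low, between 2.98 and 10.1 CPM and between 4.80 and 14.7 CPM in globin-poor libraries. In globin-rich libraries they lay between 0 and 1.07 CPM and between 0 and 4.46 CPM. Lamc1, the gamma chain shared by most laminins, was well counted in both kinds. Col18a1, whose product releases endostatin, lay between 24.7 and 44.2 CPM in globin-poor libraries and between 0.731 and 17.8 CPM in globin-rich ones, the widest range of any basement membrane gene other than Lamc1 within the globin-rich libraries.

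Among microfibril and matrix glycoproteins, Sparc, a collagen-binding protein of remodelling tissue, was one of the most abundant members per length, at 87.9 ± 24.3 CPM per kb in globin-poor libraries (SD, n = 6). It lay between 241 and 462 CPM there, with a median of 312 CPM, and between 0.183 and 5.15 CPM in globin-rich libraries. Col6a1 and Col6a2, chains of the beaded type VI collagen, are neighbours on chromosome 10, 85161 bases apart on the minus strand. Col6a1 (ENSMUSG00000001119, 76708792 to 76726168) stood at 40.0, 52.7 and 70.3 CPM in spleen KO 01, spleen KO 04 and spleen WT 01, and at 17.9, 29.0 and 36.8 CPM in blood KO 04, blood WT 03 and blood WT 04. Col6a2 lay between 16.8 and 49.0 CPM in globin-poor and between 0 and 0.435 CPM in globin-rich libraries, and the ratio of Col6a1 to Col6a2 CPM lay between 1.06 and 1.89 in the globin-poor ones. Col6a1 had 3 counts over all globin-rich libraries, against 6057 in the globin-poor ones, a ratio of pooled CPM of 430 with a counting interval of 147 to 2086. Fbn1, the fibrillin of elastic microfibrils, lay between 11.5 and 28.3 CPM in globin-poor and between 0 and 3.26 CPM in globin-rich libraries.

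The small leucine-rich proteoglycans, which bind collagen and set fibril width, included the 2 members with the widest spread among the globin-poor libraries. Dcn, decorin (ENSMUSG00000019929, chromosome 10, 97479609 to 97518143, plus strand), stood at 46.6, 123 and 162 CPM in spleen KO 01, spleen KO 04 and spleen WT 01, and at 45.6, 42.4 and 35.9 CPM in blood KO 04, blood WT 03 and blood WT 04. Lum, lumican, lies 46984 bases away on the same strand and stood at 1.02, 3.67 and 4.33 CPM in the spleen-labelled libraries, in the same order, and at 0.396, 0.643 and 0.341 CPM in the blood-labelled ones. Both were high in spleen KO 04 and spleen WT 01 only, and their highest globin-poor libraries were 4.51 and 12.7 times their lowest. Those libraries also held the adipose list, with sums of 379 CPM in spleen KO 04 and 392 CPM in spleen WT 01 against 5.36 to 62.9 CPM in the other globin-poor libraries. The part of fat tissue in the Dcn and Lum levels was not tested. Bgn, biglycan, was spread less, between 238 and 457 CPM in globin-poor libraries (51.7 ± 12.4 CPM per kb), and lay between 0.366 and 2.23 CPM in globin-rich ones.

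The receptors for platelet-derived growth factor are both tyrosine kinases. Pdgfra, which marks fibroblasts, lay between 18 and 42.4 CPM and Pdgfrb, which marks pericytes and reticular cells, between 27.7 and 58.9 CPM in globin-poor libraries. In globin-rich libraries Pdgfra reached 5.49 CPM and Pdgfrb 3.60 CPM, and both had 0 counts in blood KO 03, where 3 counts would be 0.563 CPM. Pdgfra and Kdr lie 734611 bases apart on chromosome 5, and the ratio of their CPM lay between 0.759 and 1.09 across the globin-poor libraries.

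With length taken as the union of annotated exons, smooth muscle genes held the top of the order per length. In globin-poor libraries Tagln, the actin-binding protein transgelin, stood at 139 ± 36.0 CPM per kb and Acta2, smooth muscle actin, at 92.1 ± 22.7 CPM per kb (SD, n = 6). Next came Sparc, given above, and then Cldn5 at 53.5 ± 17.1 and Bgn at 51.7 ± 12.4 CPM per kb, neighbours that differed by less than their spread, as did Acta2 and Sparc. Des, the intermediate filament desmin, stood at 31.7 ± 7.05 CPM per kb, Myh11, the smooth muscle myosin heavy chain, at 9.13 ± 3.85 and Cnn1, calponin, at 6.29 ± 1.19. Tagln lay between 219 and 400 CPM in globin-poor and between 0.376 and 3.93 CPM in globin-rich libraries, and Acta2 between 144 and 294 CPM against 0.733 and 3.04 CPM. Myh11 was the most variable of the class, at 32.1 CPM in blood KO 04 and 111 CPM in spleen WT 01. Des lay between 96.6 and 169 CPM in globin-poor and between 0 and 4.29 CPM in globin-rich libraries, and Cnn1 between 11.8 and 21.1 CPM against 1.13 and 6.53 CPM. Reads of Tagln may be shared with Pcsk7, which overlaps it on the opposite strand.

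**Figure D2:**
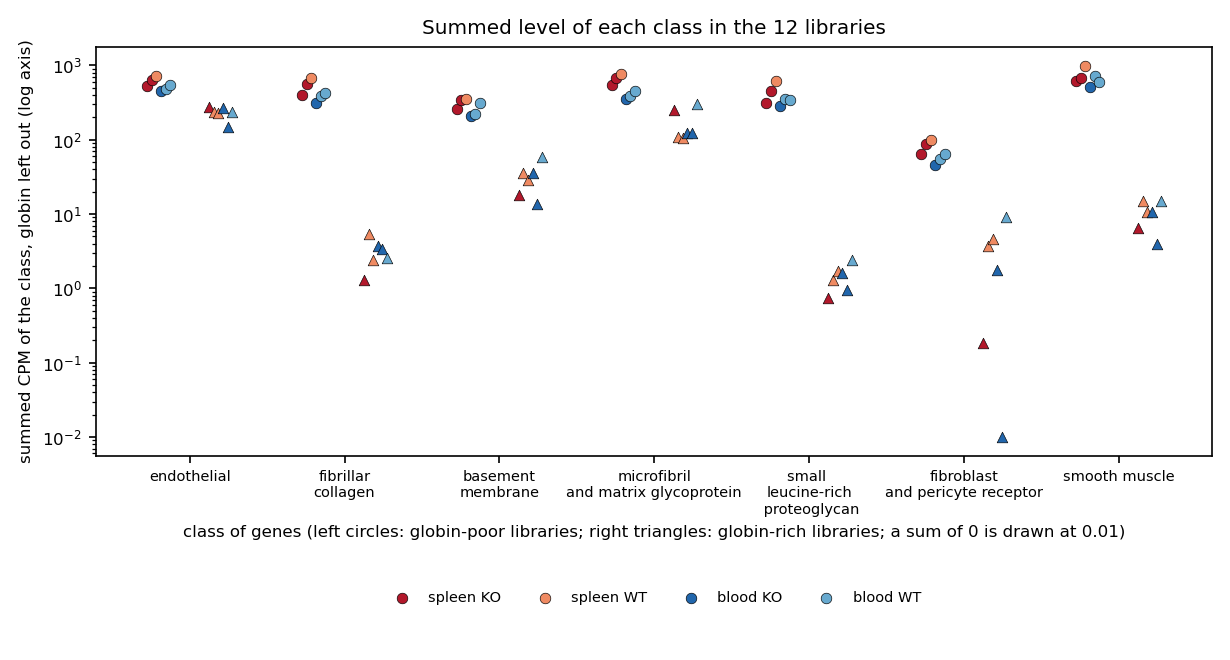
Summed CPM of each class on a log axis, with 6 globin-poor libraries as circles and 6 globin-rich ones as triangles, coloured by tissue label and genotype (a sum of 0 is drawn at 0.01). Fibrillar collagens lie at 313 to 671 CPM against 1.28 to 5.44 CPM, while the endothelial sums, 447 to 711 CPM against 146 to 274 CPM, lie closest of the 7 classes on the log axis together with the glycoproteins, which hold Fn1.

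The mix of classes was steady among the globin-poor libraries. As shares of all counts of the 35 members, endothelial genes made up 16.8% to 20.7%, fibrillar collagens 14.5% to 16.3%, smooth muscle genes 19.6% to 27.5% and proteoglycans 11.5% to 14.8% of the sum there. Glycoproteins made up 14.9% to 20.2%, basement membrane genes 8.38% to 11.5% and the receptors of fibroblasts and pericytes 2.12% to 2.56% there. In the globin-rich libraries, endothelial genes made up 37.8% to 60.1%, glycoproteins 26.9% to 48.0% and fibrillar collagens 0.231% to 1.34%. In percentage points, the receptors thus kept the narrowest range of these shares among the globin-poor libraries, followed by the fibrillar collagens.

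Pecam1, Esam, Fn1 and Lamc1, set apart after their values were seen, carried most of the members' counts in globin-rich libraries. Pecam1, an adhesion molecule of endothelium, platelets and leukocytes (ENSMUSG00000020717, chromosome 11, 106654217 to 106750628, minus strand), stood at 145, 195 and 200 CPM in spleen KO 01, spleen KO 04 and spleen WT 01, and at 110, 124 and 147 CPM in blood KO 04, blood WT 03 and blood WT 04. In the globin-rich libraries it stood at 208, 170 and 166 CPM in spleen KO 03, spleen WT 02 and spleen WT 04, and at 201, 119 and 179 CPM in blood KO 02, blood KO 03 and blood WT 01. The kinds overlapped over most of their range. Esam, a junction protein that platelets also carry (ENSMUSG00000001946, chromosome 9, 37528078 to 37538319, plus strand), lay between 17.9 and 38.5 CPM (median 25.8 CPM) in globin-poor and between 20.1 and 57.8 CPM (median 44.5 CPM) in globin-rich libraries. Platelet genes, listed for comparison, summed to 287 to 527 CPM in globin-poor and to 3083 to 9612 CPM in globin-rich libraries, with all 13 higher in every globin-rich library. Of the globin-rich libraries, blood KO 03 was lowest for both Esam (20.1 CPM) and the platelet sum (3083 CPM).

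Fn1, fibronectin (ENSMUSG00000026193, chromosome 1, 71585520 to 71653200, minus strand), stood at 125, 145 and 158 CPM in spleen KO 01, spleen KO 04 and spleen WT 01, and at 68.1, 69.7 and 101 CPM in blood KO 04, blood WT 03 and blood WT 04. In globin-rich libraries it stood at 253, 102 and 105 CPM in spleen KO 03, spleen WT 02 and spleen WT 04, and at 118, 123 and 290 CPM in blood KO 02, blood KO 03 and blood WT 01. Spleen KO 03 and blood WT 01 stood far above the other 4. Monocyte and macrophage genes summed to 2848 CPM in spleen KO 03 and 1771 CPM in blood WT 01, against 1077 to 1371 CPM in the other globin-rich libraries. Vcan, a large proteoglycan that monocytes make, stood at 45.7 and 20.1 CPM in these libraries and at 1.79 to 8.48 CPM in the other 4. The part of monocytes and of platelets in these levels was not tested. Fn1 is overlapped by Apol7d on the opposite strand. Lamc1 lay between 12.2 and 40.7 CPM in globin-poor and between 9.20 and 29.2 CPM in globin-rich libraries.

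**Figure D3:**
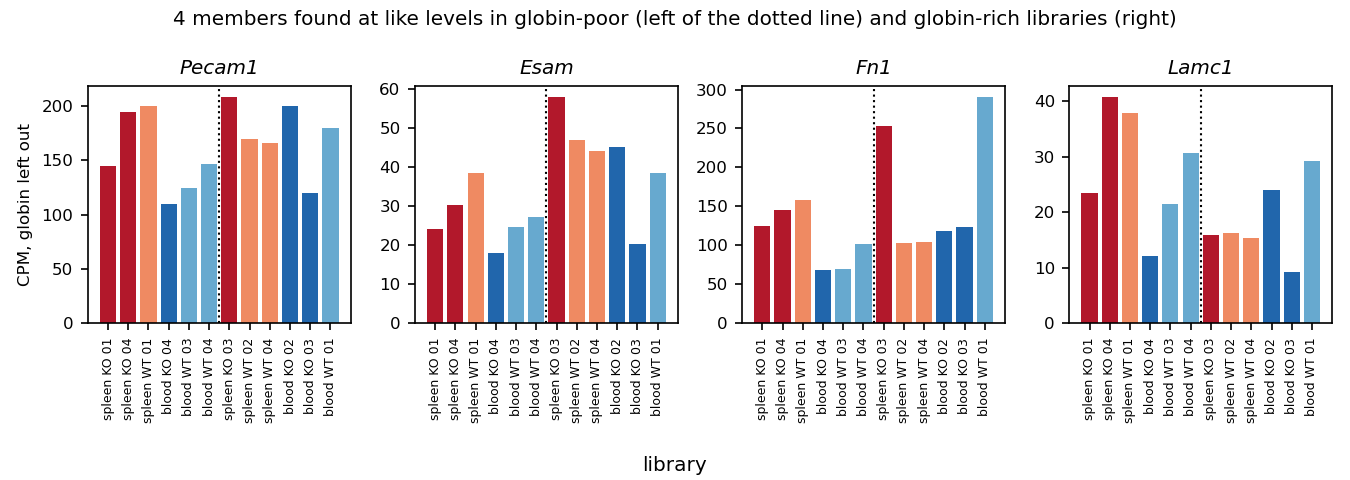
CPM of Pecam1, Esam, Fn1 and Lamc1 in each library, with globin-poor libraries left of the dotted line and globin-rich ones right of it (red and orange, spleen label KO and WT; dark and light blue, blood label KO and WT). The bars overlap between the kinds in all 4 genes, and Fn1 is highest in blood WT 01 (290 CPM) and spleen KO 03 (253 CPM).

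The other 31 members left a trace in globin-rich libraries that differed from library to library. Their sums were 19.2 CPM in spleen KO 03, 70.7 CPM in spleen WT 02, 54.2 CPM in spleen WT 04, 56.1 CPM in blood KO 02, 21.6 CPM in blood KO 03 and 84.9 CPM in blood WT 01, against 1950 to 3785 CPM in globin-poor libraries. In spleen KO 03 and blood KO 03, 14 and 12 of the 31 had 0 counts, against 1 to 6 in the other 4. Genes of olfactory receptors, which serve smell in the nose, summed to 6.95 and 7.51 CPM in spleen KO 03 and blood KO 03 and to 93.6 to 132 CPM in the other 4 globin-rich libraries. In the globin-poor libraries they summed to 4.54 to 9.98 CPM. The part of that background in the traces was not tested.

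**Figure D4:**
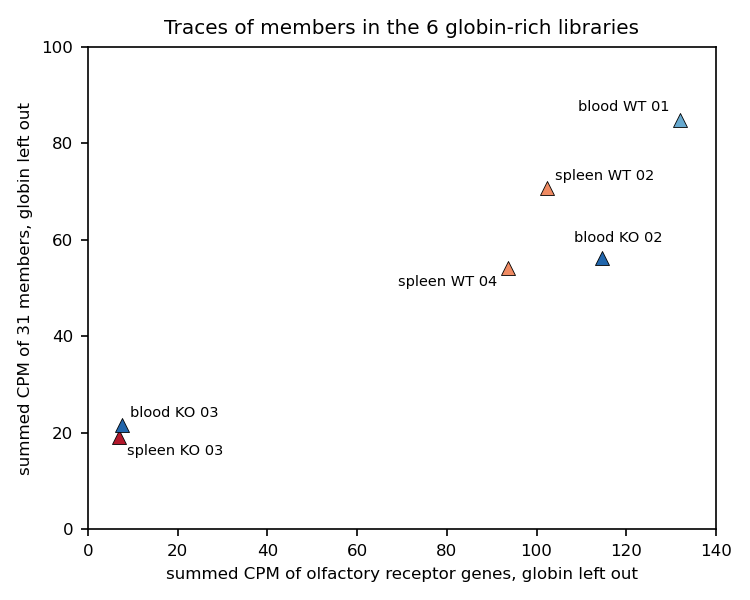
Summed CPM of the 31 members other than Pecam1, Esam, Fn1 and Lamc1 (vertical) against summed CPM of olfactory receptor genes (horizontal) in the 6 globin-rich libraries, each point a library (red and orange, spleen label KO and WT; dark and light blue, blood label KO and WT). Spleen KO 03 and blood KO 03 lie low on both axes, at 19.2 and 21.6 CPM of members, and the other 4 lie at 54.2 to 84.9 CPM.

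The tissue label was compared first, since these are genes of solid tissue. Across all 12 libraries, 33 of the 35 members had a log2 fold change of spleen over blood label above 0, with a median of 0.41 beside -0.01 for all genes. None was called by edgeR's quasi-likelihood test with Benjamini-Hochberg adjustment (smallest adjusted p 1.00), where 0% of 15974 genes were called. At an unadjusted p under 0.05 stood 399 genes (2.5%), none of them a member. DESeq2 called 17 genes and no member. Without spleen WT 01 the median was -0.15, and 19 of 34 members lay below 0. With a term for the kind of library, the median was 0.35, 31 members lay above 0 and 7 had an unadjusted p under 0.05 (10.3% of all genes did), with none called.

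Within the globin-poor libraries, the share of members that followed the tissue label was near that of all genes. In 11 members, Kdr, Tek, Emcn, Lama4, Col6a1, Col6a2, Fn1, Sparc, Dcn, Lum and Pdgfrb, every spleen-labelled library was above every blood-labelled one, beside 26.3% of all genes. The reverse held for Col5a1 alone, beside 9.45% of all genes. The 11 members are 31.4% of the 35. The median log2 fold change of spleen over blood label was 0.45, with 31 of 35 above 0, beside 0.06 for all genes.

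No member was called in this comparison by edgeR's quasi-likelihood test, with 5 of 17098 genes called (0.0292%). At an unadjusted p under 0.05 stood 16 members, or 45.7% of the 35, beside 30% of all genes. Col6a1, with the smallest p, averaged 54.3 ± 15.2 CPM under the spleen label and 27.9 ± 9.49 CPM under the blood label (SD, n = 3 each), a log2 fold change of 0.97 ± 0.17 (SE, edgeR adjusted p = 0.0650). Lum averaged 3.01 ± 1.75 CPM under the spleen label and 0.460 ± 0.161 CPM under the blood label, at 2.58 ± 0.59 (adjusted p = 0.0663, edgeR). Fn1 averaged 143 ± 16.6 CPM under the spleen label and 79.7 ± 18.6 CPM under the blood label, at 0.67 ± 0.17 (edgeR adjusted p = 0.0701).

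The fibrillar collagens divided. Col3a1 averaged 152 ± 55.2 CPM under the spleen label and 82.6 ± 21.8 CPM under the blood label (SD, n = 3 each), a log2 fold change of 0.80 ± 0.22, with an edgeR adjusted p of 0.0772. Col5a1 averaged 42.8 ± 11.8 CPM under the spleen label and 64.9 ± 3.83 CPM under the blood label, at -0.97 ± 0.25 and an edgeR adjusted p of 0.0706. Col6a2 (0.75 ± 0.20), Myh11 (0.79 ± 0.25) and Dcn (1.19 ± 0.39) also stood higher under the spleen label, with edgeR adjusted p-values of 0.0742, 0.0957 and 0.112. DESeq2, which called 9.55% of genes, called 8 members here, Col3a1, Col6a1, Col6a2, Dcn, Fn1, Lum and Myh11 higher and Col5a1 lower. Without a filter on low counts, edgeR called 4.9% of genes and 7 members, the same ones apart from Dcn. Without spleen KO 01, edgeR called 13.9% of genes and 7 members, with Col1a1, Col3a1, Col6a1, Col6a2, Dcn and Lum higher and Col5a1 lower. Dcn then stood at 1.49 ± 0.21 (edgeR adjusted p = 0.00813). Without blood KO 04, 7 members had an unadjusted p under 0.05 (15.2% of all genes) and none was called by edgeR.

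Spleen KO 01 lay inside the range of the blood-labelled globin-poor libraries for most members. It was above all 3 blood-labelled globin-poor libraries for the 11 members named above (36.3% of all genes), and below all 3 for Col5a1 and Cnn1 (14% of all genes). For Dcn, its 46.6 CPM lay next to the 45.6 CPM of blood KO 04. Other tissue content differed in the same libraries. Beside adipose genes, high in spleen KO 04 and spleen WT 01, exocrine pancreas genes summed to 455 CPM in blood KO 04 against 11.6 to 94.9 CPM in the other globin-poor libraries. Erythroid genes summed to 4391, 1966 and 685 CPM in spleen KO 01, spleen KO 04 and spleen WT 01, and to 8060, 8334 and 9197 CPM in blood KO 04, blood WT 03 and blood WT 04. Their part in the members' differences was not tested. The elastase Cela1 was the 1 gene of the other lists called here, lower under the spleen label at -2.31 ± 0.20 (edgeR adjusted p = 0.0390).

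Within the globin-rich libraries, Tie1 alone of the 35 members (2.86%) stood higher in every spleen-labelled library, near the 3.5% of all genes. It stood at 4.2, 7.18 and 5.37 CPM in spleen KO 03, spleen WT 02 and spleen WT 04. In blood KO 02, blood KO 03 and blood WT 01 it stood at 3.75, 3.38 and 4.12 CPM. Spleen KO 03 and blood WT 01 had 23 and 24 Tie1 counts, so their order lies within counting error. No member stood lower in all 3 spleen-labelled libraries (7.22% of all genes). In edgeR's fit, 18 of the 35 members passed the filter on low counts, 0 were called (0.00771% of 12962 genes were) and 1, Esam, had an unadjusted p under 0.05 (10.7% of all genes). Esam averaged higher under the spleen label, at 0.75 ± 0.23 (edgeR adjusted p = 0.267), and platelet sums there were 8491, 8948 and 9612 CPM in spleen KO 03, spleen WT 02 and spleen WT 04 against 4790, 3083 and 4752 CPM in blood KO 02, blood KO 03 and blood WT 01. DESeq2 called 164 genes and no member.

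Genotype was compared within the globin-poor libraries with the tissue label as a term. Of the 35 members, 31 had a log2 fold change of KO over WT below 0, with a median of -0.33, beside 0.00 for all genes. None was called by edgeR's quasi-likelihood test (0% of 17098 genes were), and 8 members had an unadjusted p under 0.05 (4.53% of all genes). DESeq2 called 9 genes and no member, with 6 members at an unadjusted p under 0.05. The 8 were Col6a1, Esam, Myh11, Col1a1, Acta2, Col3a1, Bgn and Pdgfrb. All had an edgeR adjusted p of 0.747. Genes of other cell types had values beside these, none of them called. Monocyte and macrophage genes were below 0 in 9 of 9 (median -0.33), while erythroid genes were above 0 in 8 of 8 (median 1.15) and exocrine pancreas genes in 7 of 7 tested (median 3.75). Summed monocyte and macrophage levels were 1286, 2043 and 943 CPM in spleen KO 01, spleen KO 04 and blood KO 04, against 2255, 1172 and 1407 CPM in spleen WT 01, blood WT 03 and blood WT 04. Their part in the members' values was not tested.

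By library, many members shared the highest and the lowest place. Spleen WT 01 was the highest globin-poor library for 27 members, beside 32.7% of all genes, and blood KO 04 the lowest for 24, beside 29.4%. KO stood below WT under both tissue labels for 21 of the 35 members, beside 17.8% of all genes, and above under both for none (13% of all genes). Comparing all 3 KO with all 3 WT libraries, only Cnn1 was lower throughout, beside 0.908% of all genes, and none was higher throughout (2.12%). Cnn1 stood at 11.8, 18 and 15.2 CPM in spleen KO 01, spleen KO 04 and blood KO 04, and at 21.1, 18.2 and 19 CPM in spleen WT 01, blood WT 03 and blood WT 04, a log2 fold change of -0.33 ± 0.20 (edgeR adjusted p = 0.747).

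Col6a1 averaged 36.8 ± 17.6 CPM in KO and 45.4 ± 22 CPM in WT globin-poor libraries (SD, n = 3 each), a log2 fold change of -0.66 ± 0.17 once the tissue label was in the fit. Myh11 averaged 60.9 ± 26.3 CPM in KO and 77.9 ± 35.2 CPM in WT, at -0.66 ± 0.25. Tagln averaged 236 ± 16.0 CPM in KO and 317 ± 87.0 CPM in WT, at -0.46 ± 0.23. In each case the libraries of KO and WT overlapped. The members above 0 were Col5a1 at 0.32 ± 0.25, Emcn at 0.26 ± 0.37, Eng at 0.11 ± 0.17 and Tek at 0.06 ± 0.30. Spleen KO 01 and spleen KO 04 were both below spleen WT 01 for 28 members (37.7% of all genes), a set that rests on a lone WT library, and blood KO 04 was below both blood WT libraries for 26 (34.2%), which rests on a lone KO library. Without blood KO 04 the median was -0.41 and 1 member had an unadjusted p under 0.05 (6.37% of all genes), and without the tissue label in the fit the median was -0.20 with no such member.

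**Figure D5:**
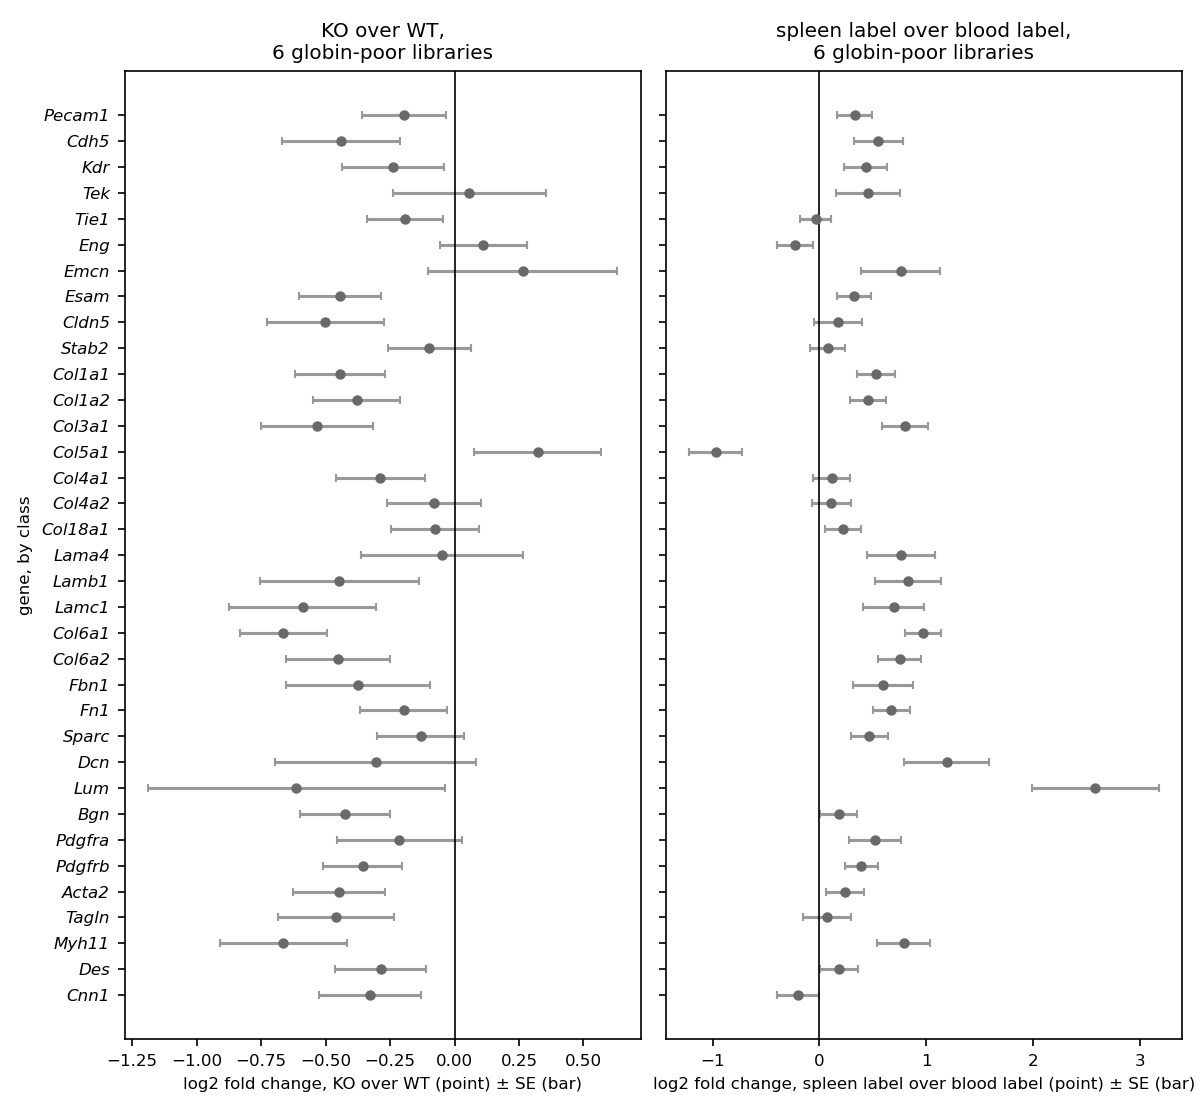
Log2 fold change (point) ± SE (bar) of each member in the 6 globin-poor libraries, for KO over WT (left) and for spleen over blood label (right), from 1 edgeR fit of both terms. On the left, 31 of 35 points lie below 0 and none was called, and on the right, 31 lie above 0 with Lum at 2.58 and Col5a1 at -0.97.

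In the globin-rich libraries, 16 of the 18 members tested had a log2 fold change of KO over WT below 0, with Eng at 0.04 and Tagln at 0.03 above it. Col18a1 (ENSMUSG00000001435, chromosome 10, 77052178 to 77166548, minus strand) stood at 0.731, 4.65 and 1.69 CPM in spleen KO 03, blood KO 02 and blood KO 03, and at 10.2, 8.06 and 17.8 CPM in spleen WT 02, spleen WT 04 and blood WT 01. Every KO library was below every WT library for Col18a1, Fbn1, Bgn, Pdgfra, Pdgfrb, Myh11 and Cnn1, or 7 of the 35 members, beside 4.73% of all genes. For no member was it the reverse (7.43%). Some of these orders rest on few counts. Fbn1 had 4 counts in both blood KO 02 and spleen WT 04. Bgn had 7 in blood KO 02 against 6 in spleen WT 02. Library size set the order in both. Of the 7 members, Fbn1, Bgn, Pdgfrb and Myh11 did not pass the filter on low counts in edgeR's fit. Olfactory receptor genes summed to 6.95, 115 and 7.51 CPM in spleen KO 03, blood KO 02 and blood KO 03, against 102, 93.6 and 132 CPM in spleen WT 02, spleen WT 04 and blood WT 01. They were thus low in 2 of the 3 KO libraries, while blood KO 02 lay inside the WT range. Platelet genes were below 0 in 13 of 13 (median -0.51) and erythroid genes in 8 of 8 (median -0.73) in the same comparison. None of these genes was called. Their part in the members' difference was not tested.

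By edgeR's quasi-likelihood test, 0 of the 18 members that passed the filter were called (0% of 12962 genes) and 5 had an unadjusted p under 0.05, namely Col18a1, Cnn1, Pdgfra, Lamc1 and Lamb1 (7.12% of all genes). Col18a1 had a log2 fold change of -3.05 ± 0.53 and Cnn1 of -2.33 ± 0.62, each with an edgeR adjusted p of 0.672. Col18a1 was called by DESeq2, at -3.18 with an adjusted p of 0.0139, where 0.0455% of genes were called. It was also called by edgeR without a filter on low counts, at -3.01 with an adjusted p of 9.16e-06 (0.255% of genes). Without blood WT 01, edgeR called 2.83% of genes, and Col18a1 stood at -4.28 with an adjusted p of 0.00947. Slc19a1, a folate transporter, overlaps Col18a1 on the opposite strand, and their reads may not be separable. Lamc1, well counted in both kinds, stood at -0.69 ± 0.29 here and at -0.59 ± 0.29 in the globin-poor libraries (edgeR adjusted p = 0.672 and 0.747).

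By tissue label, as the design laid it out, genotype was crossed with the kind of library. KO spleen held 2 globin-poor libraries and 1 globin-rich one, and WT spleen the reverse, while KO blood held 1 globin-poor library and WT blood 2. Under the spleen label the median log2 fold change of KO over WT was 0.26 (24 of 35 members above 0), and under the blood label -1.16 (31 of 34 below 0), beside 0.02 and -0.05 for all genes. Sums of all 35 members were 2735, 554 and 3406 CPM in spleen KO 01, KO 03 and KO 04, against 4219, 406 and 384 CPM in spleen WT 01, WT 02 and WT 04. They were 444, 293 and 2158 CPM in blood KO 02, KO 03 and KO 04, against 622, 2589 and 2749 CPM in blood WT 01, WT 03 and WT 04.

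Neither comparison called a member by edgeR's quasi-likelihood test or by DESeq2, and no member had an unadjusted p under 0.05 in either. edgeR called 0% of 15362 genes in spleen, where 2.41% (370 genes) reached an unadjusted p under 0.05, and 0% of 14939 in blood, where 0.161% (24 genes) did. DESeq2 called 168 genes in spleen and 0 in blood. The medians moved with single libraries, to 3.01 in spleen without spleen WT 01 and to -4.70 in blood without blood KO 04, where 25 of 33 members had an unadjusted p under 0.05 (8.69% of all genes) and none was called by edgeR. With the kind of library as a term, the median turned to -0.86 in spleen, with 33 of 35 below 0, and to -0.34 in blood, with 29 of 34 below 0. Members at an unadjusted p under 0.05 were then Cldn5, Bgn and Cnn1 in spleen (3.03% of all genes) and Lamc1, Fn1 and Myh11 in blood (2.06%), with none called. The kind-term values rest on lone libraries. In spleen these are spleen WT 01 as the only globin-poor WT library and spleen KO 03 as the only globin-rich KO one. In blood they are blood KO 04 as the only globin-poor KO library and blood WT 01 as the only globin-rich WT one.

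The difference between the KO effects of the labels, tested as an interaction over all 12 libraries, had a median of 1.58 (32 of 35 members above 0) beside 0.15 for all genes. No member was called by edgeR's quasi-likelihood test (0% of 16858 genes) or DESeq2, and none had an unadjusted p under 0.05, against 1.01% of genes (171) by edgeR. Without blood KO 04 the median was 4.59, and 3 members had an unadjusted p under 0.05 (10.4% of all genes). With the kind term the median was -0.36, with 25 members below 0 and Fn1 alone at an unadjusted p under 0.05 (1.39% of all genes). The sign of the interaction in the members therefore depended on that term.

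Genes that work with the members were followed from lists of their own, and of these Cela1 alone was called in any of the 8 comparisons. For each list in the following paragraphs up to that of reticular genes, the 2 genes with the highest mean are named, and Nr2f2, Flt4, Angpt1, Angpt2 and Vcan were added after their values were seen. Of 31 other endothelial genes, 25 stood higher in every globin-poor library. Plvap, which forms the diaphragms of endothelial windows, lay between 207 and 282 CPM in globin-poor and between 5.26 and 18.6 CPM in globin-rich libraries. Vwf, the von Willebrand factor of endothelium and megakaryocytes, was the 1 gene of that list with the reverse order, at 36.1 to 50.7 CPM against 292 to 969 CPM. Nr2f2, a vein transcription factor, lay between 31.6 and 69.3 CPM in globin-poor libraries and at no more than 2.61 CPM in globin-rich ones. Flt4, a receptor of sinus and lymph vessel endothelium, lay between 10.5 and 15.2 CPM against 0 to 2.40 CPM.

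Of 28 other matrix genes, 25 stood higher in every globin-poor library, and 28 of 28 had a fold change above 0 for the spleen over the blood label within them. Ltbp4, which binds latent transforming growth factor to microfibrils, lay between 79.0 and 246 CPM in globin-poor libraries and at no more than 6.74 CPM in globin-rich ones. Hspg2, the basement membrane proteoglycan perlecan, lay between 58.6 and 95 CPM against 0.939 and 15.6 CPM. The collagen-processing enzymes followed, with 12 of 14 apart. Serpinh1, the collagen chaperone, lay between 70.5 and 143 CPM against 0 and 0.515 CPM. Plod3, a lysyl hydroxylase, overlapped between the kinds, at 33.8 to 57.4 CPM in globin-poor and 19.1 to 63.6 CPM in globin-rich libraries.

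Among proteases and inhibitors, 8 of 9 stood higher in every globin-poor library. Timp2 lay between 98.8 and 239 CPM in globin-poor and between 8.06 and 32.4 CPM in globin-rich libraries. Mmp9, a gelatinase that neutrophils store, was the reverse, at 22.8 to 58.1 CPM against 103 to 408 CPM, highest in spleen KO 03. Of 17 other mural genes, 9 were apart, while Tpm1 and Cald1, which non-muscle cells and platelets also use, stood at 166 to 192 CPM and 81.7 to 152 CPM in globin-poor libraries, against 212 to 345 CPM and 66.3 to 258 CPM in globin-rich ones. Of 14 ligands, 9 were apart, with Vegfa at 26.4 to 45.2 CPM against 0.244 to 4.2 CPM. Tgfb1 overlapped between the kinds. Angpt1, the ligand of Tek, was the reverse, at 2.77 to 6.90 CPM against 10.5 to 38.9 CPM, whereas Angpt2, its counterpart made by endothelium, lay between 7.37 and 12.6 CPM against 0 and 1.43 CPM.

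Cxcl12 and Ccl21a, chemokines of stromal cells, had the highest means of the splenic reticular and mesothelial list. Cxcl12 stood at 351, 427 and 407 CPM in spleen KO 01, spleen KO 04 and spleen WT 01, and at 219, 262 and 410 CPM in blood KO 04, blood WT 03 and blood WT 04, with at most 4.57 CPM in the globin-rich libraries. Ccl21a, which calls T cells and dendritic cells to the white pulp, stood at 241, 328 and 401 CPM under the spleen label, in the same order, and at 162, 201 and 143 CPM under the blood label, with at most 2.06 CPM in the globin-rich libraries. Ccl21a and Ccl19 have near copies in the mouse genome, so how their reads were shared out is uncertain. All 17 genes of this list had a fold change above 0 for the spleen over the blood label within globin-poor libraries (median 0.74), and 16 of 17 lay below 0 for KO over WT (median -0.29). None was called, so these are values and not changes.

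Red pulp macrophage genes, from the same tissue but of blood cell origin, were set beside the members. All 6 stood higher in every globin-poor library, with sums of 680 to 1043 CPM against 32.7 to 140 CPM. Within the globin-poor libraries their median log2 fold change of spleen over blood label was -0.17, with 4 of 6 below 0, where the members stood at 0.45. The difference between those medians was not tested.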

How the data were processed

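RNA-seq counts per Ensembl gene were deposited by the authors for 12 libraries. Per the submitters' processing notes, the tools were HISAT2 2.0.4 and HTSeq, with Trimmomatic 0.36, SAMtools 0.1.19 and FastQC also named, on build GRCm38 (roles and order are not stated). The annotation release and strand setting were not given in the sources used here. Symbols, positions and exon lengths came from GENCODE vM21 (46091 of 46603 identifiers matched), and promoters from RefSeq. Levels per kb divide by the union of all annotated exons of a gene, not by the length of a single transcript. Where a symbol had 2 identifiers (Ccl19, Ccl21a), the first was used.

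CPM left globin counts out of the total. Tests ran over all genes with edgeR 4.0.16 (R 4.3.3), using filterByExpr, TMM and a robust quasi-likelihood fit, and calls were made at a Benjamini-Hochberg adjusted p under 0.05. DESeq2 1.42.0 was an alternative, as were another scaling, no filter, a term for the kind of library, the replicate number as a block, and each library left out in turn. No pair of libraries of a group agreed within sampling noise (smallest chi-square per degree of freedom 8.06). The labels do not say that each library is a separate mouse, so p-values measure the spread between libraries, which may be technical. All 35 members are described. Of other lists, called genes or else the 2 with the highest mean are named. The members and lists were chosen with earlier results of these data known. A count of 0 allows up to 3 counts, and counting intervals are at the 95% level.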

Additional observations from a re-analysis of the deposited data

How the results depend on the processing

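The member counts called were 0 in all main fits by edgeR. DESeq2 called 9, 15, 168, 17, 2708 and 164 genes for KO against WT in globin-poor, globin-rich and spleen-labelled libraries, and for the spleen over the blood label in all, globin-poor and globin-rich libraries. Without a filter edgeR called 4, 84, 1391 and 384 genes for KO against WT in globin-poor and globin-rich libraries and for the spleen over the blood label in globin-poor and globin-rich ones. Members called were 1 (Col18a1) for KO against WT in globin-rich libraries with either, and 8 by DESeq2 and 7 without a filter for the spleen label in globin-poor libraries. With the kind term 5 genes were called for the tissue label, and TMM without globin called 9 in the globin-poor libraries. Leaving out 1 library gave 0 to 1 members and 0 to 397 genes for KO against WT in globin-rich libraries, 0 to 7 members and 1 to 2349 genes for the spleen label in globin-poor libraries, and 0 to 272 genes for it in globin-rich ones. The cause was not tested. Of 223 alternative counts, 31 moved. The members' median, which no test covers, changed sign in 8 alternatives. It was -0.86 with the kind term and -0.28, -0.18 and -0.20 without spleen KO 04, WT 02 and WT 04 for KO against WT in spleen (0.26), -0.36 with the kind term and -0.35 with the block for the interaction (1.58), -0.15 without spleen WT 01 for the tissue label (0.41), and 0.21 without spleen KO 03 for it in globin-rich libraries (-0.12).

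No label ties a replicate number to an animal or batch, so the samples were not treated as paired. Of 8 same-numbered pairs, 4 were of unlike kind. Libraries of unlike kind deviated in opposite directions whatever their numbers, so those 4 cannot speak to pairing. Some same-numbered pairs set KO beside WT and so cannot be the same animal. Correlations of deviations were 0.46 to 0.67 in the 4 same-numbered pairs of 1 kind (median 0.57), beside 0.19 to 0.77 in 12 differently numbered pairs of 1 kind (median 0.59). Across kinds they were -0.78 to -0.21, beside -0.80 to -0.13. With the number as a replicate block, the members' median was -2.53 for KO against WT in blood, 1.52 in spleen, -0.35 for the interaction, 0.33 for the tissue label and -0.33 in globin-poor libraries, with 0 members called by edgeR. At an unadjusted p under 0.05 by edgeR stood 18 of 35 members in blood (1.74% of all genes) and 8 of 35 in globin-poor libraries (11.9%). In the blood fit without the block, none did. Only numbers 3 and 4 occur under both genotypes in blood, and number 3 sets globin-poor blood WT 03 beside globin-rich blood KO 03. In spleen, number 4 sets globin-rich spleen WT 04 beside globin-poor spleen KO 04. Genotype and kind of library cannot be told apart in these blocks. The globin-rich libraries shared too few numbers for a block. In the globin-poor libraries only number 4 held both tissue labels, and the block fit was read for genotype alone.

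With 3 libraries a group and shallower globin-rich libraries, 17 members fell under the filter there, and levels near the floor could not be ordered.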
